A study of Mus musculus with 20 samples.

Results

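The regions described here are peaks of H3K27ac, acetylation of histone H3 at lysine 27, that lay inside genes and away from gene ends in Comma-Dβ cells. A peak was taken when it lay on an autosome, was under 10.0 kb wide, shared no base pair with a peak of H3K4me3 or of H3K27me3, and had its midpoint inside a protein-coding gene span and 5 kb or more from every end of a protein-coding gene. Of 61496 deposited H3K27ac peaks, 21887 met these criteria (35.6%). The criteria removed peaks in steps. Autosomes held 60205 peaks, the width limit left 59495, the absence of H3K4me3 left 46863 and the absence of H3K27me3 left 45459. Distance from gene ends left 38505 peaks, of which the 21887 intragenic peaks lay inside a gene and 16618 intergenic peaks did not. The intergenic peaks passed the same filters and are the closest comparison. A second comparison is with 6704 gene-end peaks, which overlapped H3K4me3, not H3K27me3, and had a midpoint within 1 kb of a gene end.

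H3K27ac is laid down by the acetyltransferases p300 and CBP and marks active promoters and enhancers, while H3K4me3 is found mainly at promoters and H3K27me3 is the mark of Polycomb repression. Many enhancers lie within introns, where they can act on the gene that holds them or on another gene. HEB is the E protein encoded by Tcf12, a basic helix-loop-helix transcription factor that binds E-box motifs as a dimer.

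Chromatin immunoprecipitation with sequencing covered 20 samples, with 4 replicates, called biological by the submitters, for each antibody, against HEB, H3K27ac, H3K4me3 or H3K27me3, and for input. All were Comma-Dβ, a cell line from mouse mammary epithelium, at passage 28, in DMEM/F12 with mEGF at 5 ng/mL, insulin at 0.125 IU/mL, HEPES at 10 mM and FBS at 2%, so that the values describe 1 cultured line and not the gland. Each antibody had 1 peak list without a column per replicate, so no value here has a replicate error, differences carry no test, read depth is unknown, and the Wilson 95% intervals cover counting error only. H3K27ac lay within 1 kb of an end of 6 of 7 mammary epithelial markers (Krt14, Krt5, Krt8, Krt18, Epcam and Cdh1, not Trp63). It also lay there in 3 of 5 fibroblast markers, 2 of 7 immune markers and 1 of 5 endothelial markers. The counts were 1 of 5 adipocyte, 1 of 4 autosomal neuronal and 0 of 5 skeletal muscle markers. H3K27me3 lay at an end of 3 of 7 epithelial, 2 of 5 fibroblast, 4 of 7 immune and 2 of 5 endothelial markers. For adipocyte, autosomal neuronal and skeletal muscle markers the H3K27me3 counts were 3 of 5, 3 of 4 and 4 of 5. In 51.6% of the 13177 genes counted as eligible below, H3K27ac and H3K4me3 each stood at an end, not necessarily the same one, and H3K27me3 at neither.

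Annotated transcript starts lay inside some of these peaks. The criteria kept each peak's midpoint 5 kb or more from the ends of protein-coding genes only, not from those of noncoding genes. Of 32851 RefSeq start windows on assembly GRCm38.p6, each running from 250 bases before to 50 bases after a start, 212 lay whole inside 188 intragenic peaks (0.859% of them). Protein-coding genes supplied 75 of these windows, from 66 genes, and long noncoding RNA genes supplied 137, from 123 genes. The windows were searched for 2 E-box hexamers, CAGCTG, which reads the same on both strands, and CAGGTG on either strand. CAGCTG stood in 23.1% of the windows inside intragenic peaks and in 16.3% of all windows, and CAGGTG stood in 26.9% and 20.2%. These shares were not adjusted for the type of gene or for genes with several windows. They are a description of letters and not of binding. The windows below are those inside an intragenic peak that also held an HEB site, chosen after their values were seen, and show transcript starts that share a peak with HEB. Capitals mark either hexamer.
Daam1, internal start, chr12:71889293-71889592, plus strand: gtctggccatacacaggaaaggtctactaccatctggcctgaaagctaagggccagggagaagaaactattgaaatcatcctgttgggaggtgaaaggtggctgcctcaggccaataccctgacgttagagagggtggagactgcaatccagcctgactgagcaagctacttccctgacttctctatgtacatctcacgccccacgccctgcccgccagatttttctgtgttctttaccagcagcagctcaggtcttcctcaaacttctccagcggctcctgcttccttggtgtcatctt
Hdac7, internal start, chr15:97814814-97815113, minus strand: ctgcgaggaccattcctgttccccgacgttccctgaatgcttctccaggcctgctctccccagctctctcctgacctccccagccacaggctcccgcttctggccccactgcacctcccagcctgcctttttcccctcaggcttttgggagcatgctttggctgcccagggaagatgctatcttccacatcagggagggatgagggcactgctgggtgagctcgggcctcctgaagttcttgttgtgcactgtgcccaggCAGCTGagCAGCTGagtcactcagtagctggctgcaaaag
Gm42352, start of a noncoding RNA gene inside Casz1, chr4:148871512-148871811, minus strand: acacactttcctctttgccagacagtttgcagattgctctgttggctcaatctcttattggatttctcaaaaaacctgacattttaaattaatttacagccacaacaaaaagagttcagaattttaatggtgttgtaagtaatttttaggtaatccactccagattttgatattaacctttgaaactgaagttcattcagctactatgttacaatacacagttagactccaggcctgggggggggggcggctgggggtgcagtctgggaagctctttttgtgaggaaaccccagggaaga
Daam1 encodes a formin that assembles actin downstream of Wnt, and its internal start lay in a peak with a deposited fold of 3.91, 2.31 kb from the HEB site at chr12:71886970-71887299, measured between midpoints as are the other distances to HEB sites. Hdac7 encodes a class IIa histone deacetylase. Its internal start held 2 copies of CAGCTG in a peak with a fold of 4.57, 2.63 kb from the HEB site at chr15:97812095-97812573. The HEB site at chr4:148871719-148872382 overlapped the Gm42352 window, in a peak with a fold of 2.31 inside Casz1, a zinc finger transcription factor gene. Neither hexamer stood in the Daam1 and Gm42352 windows.

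MicroRNA hairpins lay in the intragenic peaks as well. Of 919 autosomal hairpins in the RefSeq table, 25 lay whole inside 24 intragenic peaks, and 4 of the 25 lay in peaks with an HEB site. The mature sequences of those 4 are shown with the seed, bases 2 to 8, in capitals, because the seed sets which messenger RNAs a microRNA pairs with. The 5 mature sequences had 5 different seeds, so none shared a seed family.
mmu-miR-6406, chr11:68220917-68220938, plus strand: cGCGACCUcaggcugacucaug
mmu-miR-3971, chr11:75551480-75551501, plus strand: cUCCCCACcccuguaccaguga
mmu-miR-3473e, chr5:31667296-31667316, minus strand: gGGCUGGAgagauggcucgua
mmu-miR-199a-5p, chr9:21496537-21496559, minus strand: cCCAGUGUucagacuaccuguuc
mmu-miR-199a-3p, chr9:21496498-21496519, minus strand: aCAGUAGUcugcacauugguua
The HEB site at chr11:68220787-68221323 overlapped the Mir6406 hairpin, inside the netrin gene Ntn1, in a peak with a fold of 2.01. Mir199a-1, which gives rise to both miR-199a arms, lay inside the dynamin gene Dnm2 in a peak with a fold of 4.80, 0.561 kb from an HEB site. Mir3971 lay in Slc43a2, a neutral amino acid transporter gene, in a peak with a fold of 5.75, 0.589 kb from an HEB site. Its hairpin held the CAGGUG form of the E-box in capitals, printed here to show where it lies.
Mir3971 hairpin, chr11:75551429-75551511, plus strand: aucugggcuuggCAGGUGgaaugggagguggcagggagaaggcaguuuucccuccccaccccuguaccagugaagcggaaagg
Mir3473e lay in the ribokinase gene Rbks, in a peak with a fold of 3.73, 0.967 kb from an HEB site.

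The intragenic peaks were narrow and weak beside other H3K27ac peaks. Fold enrichment here is the authors' ratio of ChIP over control for each peak, and the caller's q-value is given as −log10 q. Together the peaks covered 35.3 Mb, with a median width of 1117 bp (interquartile range 596 to 2090, limits 239 to 9998). The median width of intergenic peaks was 1240 bp and that of gene-end peaks 1869 bp. The median fold was 2.14 in intragenic peaks (interquartile range 1.93 to 2.68), 2.35 in intergenic peaks and 4.27 in gene-end peaks. The spread was wide all the same, since 5% of intragenic peaks had a fold above 4.52 and the highest reached 12.6. A −log10 q of 5 or more was reached by 6537 intragenic peaks (29.9%), against 41.4% of intergenic peaks, 90.3% of gene-end peaks and 45.1% of all autosomal H3K27ac peaks. The top 10.0% of autosomal peaks by fold, at 5.18 or more, took in 619 intragenic peaks (2.83%), 5.01% of intergenic peaks and 34.0% of gene-end peaks. These strengths come from the same list that chose the peaks, so they describe it and nothing is read from them.

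**Figure D1:**
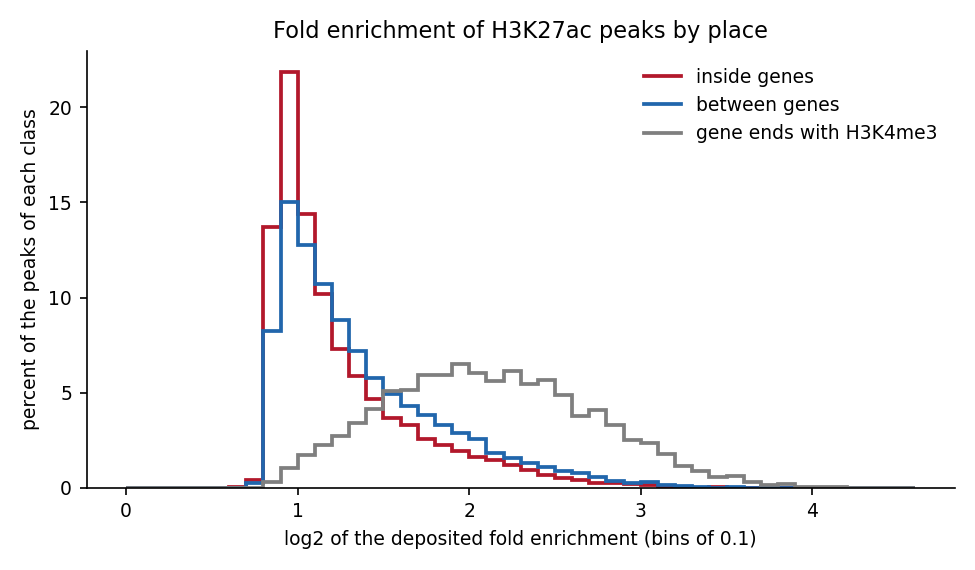
Distribution of the deposited fold enrichment, on a log2 axis, for intragenic peaks (red), intergenic peaks with the same filters (blue) and gene-end peaks with H3K4me3 (grey), each as the percent of its class per bin of 0.1. The red and blue curves both peak near 1 on the log2 axis, with medians of 2.14 and 2.35 fold, and the grey curve lies to the right, with a median of 4.27 fold.

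The 10 strongest intragenic peaks reached folds of 10.1 to 12.6, inside the range of gene-end peaks, which went up to 20.3. The strongest lay in 2310022B05Rik (chr8:124642325-124646135), 8.47 kb from the nearest gene end, with a fold of 12.6 and an HEB site. Next were peaks in the inositol hexakisphosphate kinase gene Ip6k3 (chr17:27152762-27158920, fold 12.3), the retriever complex gene Vps35l (fold 11.3) and the microtubule-associated gene Nav2 (chr7:49598407-49603932, fold 11.3). The Nav2 peak lay 98.6% of the way from the annotated start to the finish, in a gene whose ends carried H3K27me3 and not H3K4me3. Kctd14 held a peak with a fold of 11.2, Ripor2 one with a fold of 11.003, and Eps8, an actin-capping EGF receptor substrate gene, one with a fold of 10.9. Runx2, a Runt transcription factor gene, held a peak with a fold of 10.7 at 97.8% of its length (chr17:44499325-44506876). The list ended with Hhat, the Hedgehog acyltransferase gene, whose peak had a fold of 10.1 and an HEB site, and the cytokine gene Il16, also at 10.1.

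Peaks near the limits of the criteria can be set side by side. The 813 intragenic peaks with midpoints 5 to 6 kb from a gene end had a median fold of 2.08, and the 933 peaks 4 to 5 kb from one that met the other criteria had a median of 2.02. At the width limit, 78 intragenic peaks of 9 to 10 kb had a median fold of 4.54, and 130 peaks of 10 kb or more that met the other criteria had a median of 4.35. The widest intragenic peaks lay in the actin-binding gene Lima1 (9998 bp, fold 4.68), Asap1 (9991 bp, 5.25), the importin gene Ipo9 (9985 bp, 4.11), the retinoid X receptor gene Rxra (9975 bp, 2.73) and Dip2b (9955 bp, 4.48). Those just past the limit lay in the hepatic lipase gene Lipc (10.0 kb, fold 4.48), Gxylt2 (6.85), Frmd4a (5.35), the E-cadherin gene Cdh1 (5.57, with an HEB site) and the transketolase gene Tkt (4.96). Neither limit fell at a break in strength.

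The peaks were shared out unevenly over genes. Of 13177 autosomal protein-coding genes with any base pair 5 kb or more from every gene end (eligible genes), 5988 held an intragenic peak (45.4%). A single peak was held by 2255 host genes (37.7% of hosts), while 938 held 5 to 9, 378 held 10 to 19 and 95 held 20 or more. Genes with 10 or more peaks together held 7436 of them (34.0%). The span of a gene sets how many peaks it can hold, and its median was 60.8 kb in host genes and 22.2 kb in eligible genes without a peak. Over the 815.3 Mb of genes far enough from gene ends, the density was 2.68 peaks per 100 kb, and 0.802 per 100 kb for peaks with −log10 q of 5 or more. In all, 21768 peaks lay in 1 gene span, and 119 lay where spans overlap, so that these count for each of those genes.

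The host genes with the most peaks included regulators of adhesion, polarity and transcription. Adgrl3, an adhesion G protein-coupled receptor gene, held 55 peaks over 808.7 kb (6.89 per 100 kb, highest fold 5.72). Foxp1, a forkhead transcription factor gene, held 44 (7.49 per 100 kb, highest fold 5.48), and the kinase gene Mast4 held 42 (7.09 per 100 kb, 7.17). Denser still were the Arf GTPase-activating gene Asap1, with 41 peaks (14.3 per 100 kb), Brinp3, with 41 (10.3), and Ext1, which encodes a heparan sulfate polymerase, with 40 (14.9). The ErbB ligand gene Nrg1 held 38 over 1084.2 kb (3.55 per 100 kb), the polarity gene Pard3 37 (6.87) and the recombination gene Rad51b 35 (6.47, highest fold 8.59). All of these genes but Nrg1 had H3K4me3 and H3K27ac and no H3K27me3 at their ends. Each lay above the overall density of 2.68 per 100 kb.

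By density, short genes led, with few and weak peaks. Lemd2, a nuclear envelope gene, held 3 peaks in the 5.87 kb open to the criteria (51.1 per 100 kb, highest fold 2.05). Ehbp1l1 held 3 (34.9 per 100 kb), the mitotic gene Rcc2 4 (34.0), Klrg2 4 (32.0) and the nuclear membrane gene Tmem201 4 (31.5). The PDZ protein gene Pick1, the ephrin receptor gene Ephb4, the leucine catabolism gene Ivd, the Mediator subunit gene Med24 and the kynurenine aminotransferase gene Kyat1 had 26.9 to 29.1 per 100 kb, from 3 or 4 peaks each. The highest fold in any of these 10 genes was 3.00. Klrg2 was the only one of the 10 with H3K27me3 and without H3K4me3 at its ends.

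Many peaks stood near another peak of the same gene, at a share that depended on the threshold and the distance. Of the 21887, 14448 (66.0%) had another intragenic peak of the same gene with its midpoint within 12.5 kb, and they formed 4738 groups, of which 2553 were pairs, 649 held 5 or more peaks and 69 held 10 or more. The share was 33.7% among peaks with −log10 q of 5 or more, 37.7% among those whose fold exceeded the median of all H3K27ac peaks, and 32.6% at a distance of 5000 bp. Among intergenic peaks 55.1% had another within 12.5 kb. The longest run was in Asap1, with 30 peaks over 171.6 kb, a median fold of 2.02 and a highest fold of 5.25. Pard3 held a run of 20 over 89.4 kb, and Mical2 one of 17 over 102.8 kb, 2 of them with HEB. Grouped and single peaks had near-equal median folds, of 2.14 and 2.13, and near-equal shares with HEB, of 0.803% and 0.807%.

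Marks were also counted at the ends of host genes. Each mark was counted over both ends of a gene, so that H3K4me3 and H3K27ac need not stand at the same end. The criteria removed H3K27ac peaks that overlap H3K4me3 or H3K27me3, so these marks are not fully independent of the choice. An active pattern, H3K4me3 and H3K27ac without H3K27me3 within 1 kb of either end, was found at 3857 of 5988 host genes (64.4%, 63.2 to 65.6) and at 40.9% of 7189 eligible genes without a peak, against 51.6% of all eligible genes. H3K27me3 at an end was found at 21.3% of host genes and 38.7% of eligible genes without a peak, against 30.8% of all eligible genes. None of the 3 marks stood at the ends of 7.999% of host genes and 14.9% of the others. Host genes were longer, and within each class of gene length the active pattern was again more frequent in host genes. It was found at 77.3% of host genes and 46.7% of the others at 10 to 30 kb, at 69.5% and 33.9% at 30 to 100 kb, at 54.5% and 13.0% at 100 to 300 kb, and at 27.3% and 3.66% above 300 kb. Counting only H3K27ac peaks with −log10 q of 5 or more, inside genes and at their ends, brought the shares with active ends nearer to each other. They were 52.7% of host genes and 46.4% of eligible genes without a peak.

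Peak density followed the same order. Genes with the active pattern held 4.53 intragenic peaks per 100 kb, and genes with H3K27me3 and without H3K4me3 at their ends held 0.834 per 100 kb, so the density in active genes was 5.42 times that in H3K27me3 genes. In peaks with −log10 q of 5 or more the densities were 1.20 and 0.299 per 100 kb, a ratio of 4.02. For all peaks, genes with H3K27ac alone at an end had 3.83 per 100 kb, those with all 3 marks 2.70, those with H3K4me3 alone 2.24, those with none 1.56, and those with H3K4me3 and H3K27me3 1.32. At −log10 q of 5 or more the order at the top changed. Genes with H3K27ac alone were then the densest, at 1.49 per 100 kb against 1.20 in active genes. Active genes held 66.5% of the peaks and 39.1% of the base pairs open to them. The criteria themselves remove peaks that overlap H3K27me3, which here were 444 peaks. With these counted, the densities were 4.53 per 100 kb in active genes and 0.940 in H3K27me3 genes, a ratio of 4.82. Strength ran the other way, since the median fold was 2.09 in active genes (interquartile range 1.91 to 2.57), 2.27 in H3K27me3 genes (1.99 to 2.87) and 2.34 in genes with H3K4me3 and H3K27me3 (1.99 to 2.97).

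Some genes whose ends carried H3K27me3 and neither active mark still held many peaks. Nrg1 held 38 (highest fold 6.43, 1 with HEB) and Nav2 34 (highest fold 11.3). Palld, the gene of the actin scaffold palladin, held 32 (8.39 per 100 kb, highest fold 5.03), the polarity gene Frmd4a 27 (4.60 per 100 kb, 6.59) and the Rac GTPase-activating gene Arhgap24 22 (3.20 per 100 kb, 5.19). All 5 lay above the 0.834 per 100 kb of genes with H3K27me3 and without H3K4me3.

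Along genes the peaks were spread nearly evenly, with a lower density deep inside long genes. Strand was known for 4710 host genes, and of 17239 pairs of a peak and a gene in these, 50.5% (49.8 to 51.3) lay on the side of the gene's midpoint nearer the annotated start, where 50.03% of the open base pairs lay. Measured from the start, the density was 3.30 per 100 kb at 5 to 10 kb, 3.40 at 10 to 20 kb, 3.36 at 20 to 50 kb, 3.14 at 50 to 100 kb, 2.55 at 100 to 200 kb and 1.40 beyond 200 kb. Measured from the finish, it was 3.20, 3.42, 3.30, 3.17, 2.58 and 1.43 per 100 kb over the same distances. The longest distances come only from the longest genes. In genes with the active pattern the density was 4.85 per 100 kb at 5 to 10 kb and 3.07 beyond 200 kb from the start. In genes with H3K27me3 and without H3K4me3 at the ends, 43.5% of the pairs (40.8 to 46.3, 1268 pairs) lay on the start side of the midpoint, against 52.1% (51.2 to 53.0, 11538 pairs) in active genes. The density in these H3K27me3 genes was 0.585 per 100 kb at 5 to 10 kb from the start and 0.909 at that distance from the finish. Peaks that overlap H3K27me3, which these genes carry at an end, were removed by the criteria. Positions were not recomputed with the removed peaks counted, and whether their removal shaped these differences was not tested.

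**Figure D2:**
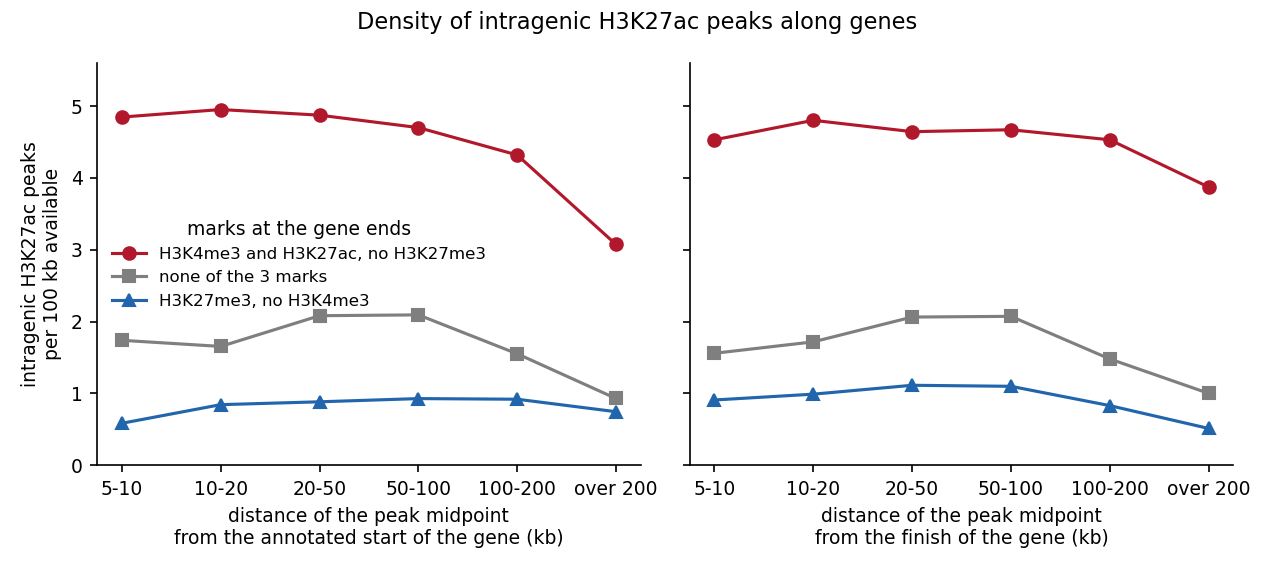
Intragenic H3K27ac peaks per 100 kb of open sequence against distance from the annotated start (left) and the finish (right) of the gene, for genes grouped by the marks at their ends. Of the 3 classes shown, active genes (red) lie highest at every distance, at 4.85 per 100 kb nearest the start and 3.07 beyond 200 kb, and H3K27me3 genes (blue) lie lowest, at 0.585 per 100 kb nearest the start. The criteria removed peaks that overlap H3K27me3, and these densities were not recomputed with them.

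Distances from the peaks to gene ends and to other marks were in part set by the criteria. Peaks with midpoints near gene ends, and peaks that overlap H3K4me3 or H3K27me3, were removed from the intragenic and intergenic classes alike. The distances below therefore describe the chosen peaks and are not a separate finding. The median distance to the nearest gene end was 27.005 kb in intragenic peaks (interquartile range 12.9 to 58.9) and 55.4 kb in intergenic peaks. The nearest H3K4me3 peak was a median of 29.1 kb away from intragenic peaks and 56.6 kb from intergenic peaks, and 0.283% of intragenic peaks had one within 1 kb. The nearest H3K27me3 peak was a median of 66.1 kb from intragenic peaks and 64.3 kb from intergenic peaks.

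Chromosomes differed in density and in strength. The share of intragenic peaks with −log10 q of 5 or more ran from 22.5% on chromosome 5 to 36.8% on chromosome 18. Chromosome 15 had 4.03 intragenic peaks per 100 kb, chromosome 11 had 3.55 and chromosome 5 had 3.40, while chromosomes 12 and 14 had 1.87 each. The densest chromosomes had low median folds, 2.03 on chromosome 15 and 2.02 on chromosome 5, against 2.32 on chromosome 12. For peaks with −log10 q of 5 or more the range was narrower, at 1.01 per 100 kb on chromosome 15, 0.765 on chromosome 5, 0.682 on chromosome 12 and 0.637 on chromosome 14. In genes with the active pattern alone, chromosome 15 again had the highest density, at 7.19 per 100 kb, and chromosome 18 the lowest, at 2.69.

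The focal adhesion and actin list held 383 of the 21887 intragenic peaks and the Hippo, YAP and TEAD list 146, both at densities above that of all eligible genes. In what follows, a list is described by its host genes among its eligible genes and by its peaks per 100 kb. Over all eligible genes these were 45.4% and 2.68 per 100 kb. Genes with the active pattern at their ends held 4.53 per 100 kb as a class, and lists differed in their share of such genes. That share was 95.7% in the Hippo list, 75.6% in the focal adhesion list and 33.3% in the hormone-sensing luminal list, against 51.6% of all eligible genes. List densities were not adjusted for it. The Hippo, YAP and TEAD list had 17 hosts of 23 genes (73.9%) and 8.12 peaks per 100 kb, the highest density of the lists shown. Within it Tead1, the DNA-binding partner of YAP, held 23 peaks (highest fold 6.89, 1 with HEB), the YAP-binding phosphatase gene Ptpn14 20, the kinase gene Stk3 13 and the scaffold gene Wwc2 12. The focal adhesion and actin list had 37 hosts of 41 genes (90.2%) and 5.88 peaks per 100 kb, with Nav2 at 34 peaks, the LIM domain gene Lpp at 33, Palld at 32 and the tensin gene Tns3 at 24. The median span in these lists was 73.7 kb and 104.3 kb, above the 33.8 kb of all eligible genes, so the density says more than the share of hosts.

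Lists of epithelial and mammary identity were also above the overall density, with the hormone-sensing list below it. Basal identity genes had 12 hosts of 13 and 6.0 peaks per 100 kb, with the plakin gene Dst at 21 peaks, Trp63 at 14, the EGF receptor gene Egfr at 10 and the hyaluronan receptor gene Cd44 at 7. Trp63, the master regulator of basal epithelium, had none of the 3 marks at its annotated ends and an intragenic peak with a fold of 7.08. Epithelial adhesion genes had 16 hosts of 21 and 5.72 peaks per 100 kb, including Pard3 (37), Magi1 (22), the adherens junction gene Afdn (14) and the tight junction gene Tjp1 (12). Smooth muscle contractile genes had 7 hosts of 14 and 5.41 per 100 kb, most of them in Mrtfa (17), Cald1 (14), Mrtfb (11) and Mylk (7). Other mammary transcription factors had 19 hosts of 29 and 4.66 per 100 kb, with Foxp1 at 44 peaks, the nuclear factor I gene Nfib at 30, Runx2 at 28 and Runx1 at 17. Luminal progenitor genes had 3 hosts of 9 and 4.15 per 100 kb, with 17 of the 20 peaks in Runx1, and hormone-sensing luminal genes had 5 hosts of 9 and 1.68 per 100 kb, with 8 of 13 peaks in the estrogen receptor gene Esr1. The E protein genes were hosts themselves, with 14 peaks in Tcf12, which encodes HEB, 12 in Tcf4 and 3 in Tcf3, at highest folds of 2.98, 4.33 and 2.05.

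Matrix and signalling lists ran from near the overall density to about that of the adhesion lists. Fibrillar and other matrix genes had 18 hosts of 37 and 5.29 peaks per 100 kb, led by the latent TGF-beta binding protein gene Ltbp1 (29), Col5a1 (13), Ltbp2 (12) and the tenascin gene Tnc (11). Basement membrane genes had 16 hosts of 19 and 4.60 per 100 kb, with 16 peaks each in Col4a2 and Col18a1, 14 in the laminin gene Lamc1 and 8 in Lama2. TGF-beta and BMP genes had 21 hosts of 28 and 5.39 per 100 kb, with 12 peaks in Tgfbr3, 11 in Acvr1 and 9 each in Smad3 and Tgfb2. Notch genes had 11 hosts of 19 and 5.25 per 100 kb, with 22 peaks in Maml2, 15 in Maml3, 12 in Rbpj and 7 in Numb, 3 of them genes of the Notch transcription complex and the fourth a Notch inhibitor gene. Wnt genes had 25 hosts of 35 and 4.57 per 100 kb, with Lrp6 (14), Tcf7l1 (13), Ror1 (12) and Znrf3 (11). EMT regulators had 8 hosts of 9 and 4.85 per 100 kb, EGF receptor and Ras-MAPK genes 24 of 31 and 3.33 per 100 kb, and nuclear receptors and their cofactors 19 of 27 and 2.80 per 100 kb. AP-1 and related factors, with a median span of 21.4 kb, had 4 hosts of 9 and 5.80 per 100 kb, with 17 of the 25 peaks in Bach2.

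Control lists of broadly expressed genes lay above the overall density. Among markers of other cells, the immune, neuronal, endothelial and skeletal muscle lists lay below it, and the fibroblast and adipocyte lists slightly above it. Cell cycle genes had 10 hosts of 15 and 6.48 peaks per 100 kb, with 19 of the 36 peaks in Cdk6, and housekeeping genes 5 hosts of 8 and 7.05 per 100 kb over 0.113 Mb. Immune markers had 2 hosts of 13 and 0.329 per 100 kb, 1 peak each in Itgam and Spi1. Neuronal markers had 18 hosts of 33 and 0.480 per 100 kb, at a median span of 911.1 kb, with 22 peaks in Macrod2, 14 in Dlg2 and 11 in Gria1. Endothelial and skeletal muscle markers had 1.16 per 100 kb each, from 5 hosts of 11 and 4 hosts of 10, stromal fibroblast markers 2.91 from 6 of 10, and adipocyte markers 3.03 from 3 of 9, with 6 of 8 peaks in Pparg. At the ends of these genes H3K27me3 stood in 69.2% of eligible immune markers and 69.7% of neuronal markers, against 4.35% of the Hippo list. Median folds ranged from 1.96 in the cell cycle list to 2.51 in the AP-1 list, around the 2.14 of all intragenic peaks.

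**Figure D3:**
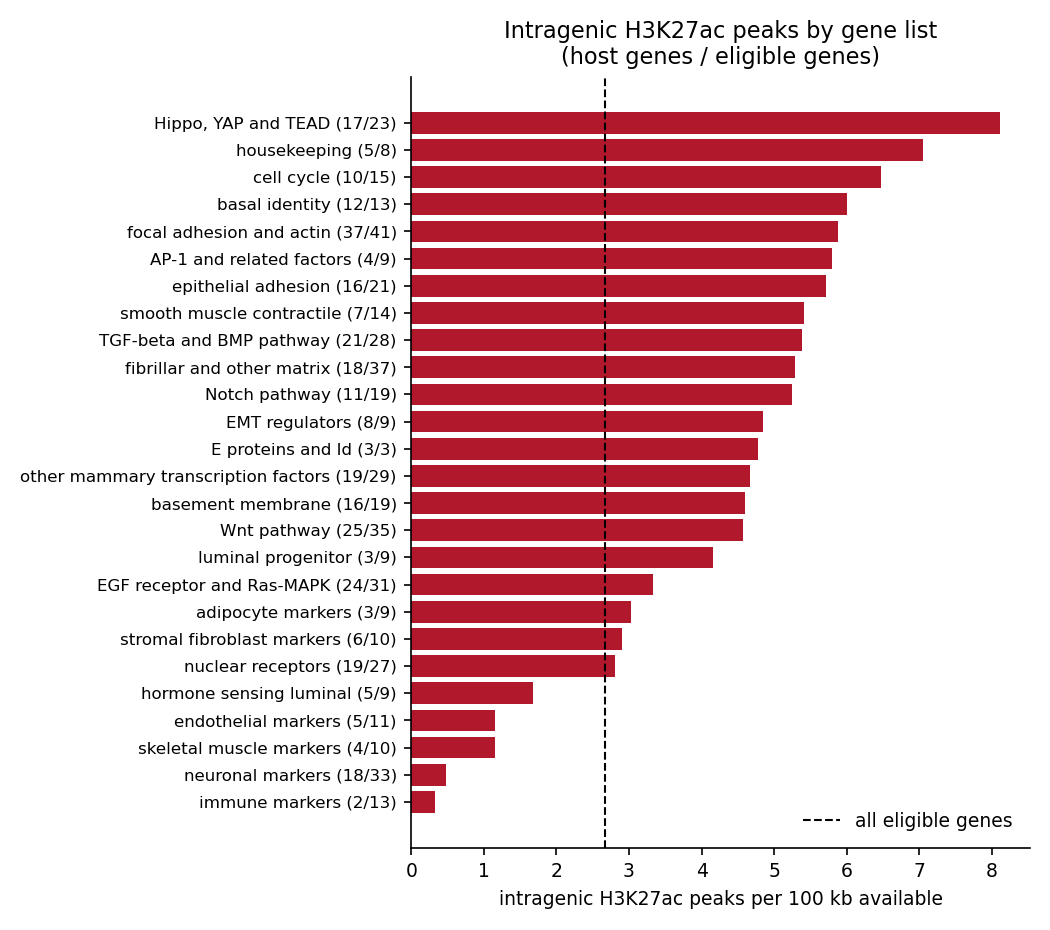
Intragenic H3K27ac peaks per 100 kb of open sequence for each of 26 gene lists, with the numbers of host genes and eligible genes in brackets and the density over all eligible genes as a dashed line at 2.68. The Hippo list has the longest bar, at 8.12, and neuronal and immune markers the shortest, at 0.480 and 0.329.

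HEB occupied few of the intragenic peaks, and these were strong and wide. An HEB site overlapped 176 of 21887 intragenic peaks (0.804%, 0.694 to 0.931), 224 of 16618 intergenic peaks (1.35%, 1.18 to 1.53), 44 of 6704 gene-end peaks (0.656%) and 738 of all 60205 autosomal H3K27ac peaks (1.23%). From the side of HEB, 178 of 874 autosomal sites (20.4%, 17.8 to 23.2) lay in intragenic peaks, 226 in intergenic peaks and 45 in gene-end peaks. The median fold was 3.78 in intragenic peaks with HEB (interquartile range 2.75 to 4.80) and 2.14 in those without (1.92 to 2.66). The median width was 3048.5 bp with HEB and 1109 bp without, and −log10 q reached 5 in 83.5% with HEB and 29.4% without. The site lay in the central 50% of the peak's length in 132 of 178 cases (74.2%). Position along the gene differed by less than the counting interval, with 44.3% of peaks with HEB on the start side of the midpoint (36.3 to 52.6, n = 140) against 50.5% of all pairs.

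At equal width, HEB was less frequent in intragenic than in intergenic peaks, and at equal fold the shares were closer. Under 1 kb, 0.132% of intragenic and 0.288% of intergenic peaks held a site, and at 4 to 10 kb the shares were 3.44% (2.64 to 4.46) and 6.08% (4.81 to 7.67). At 1 to 2 kb they were 0.593% and 0.971%, and at 2 to 4 kb 1.69% and 2.47%. By fold, the shares were 0.0634% in intragenic and 0.102% in intergenic peaks under 2, 0.541% and 0.814% from 2 to 3, 2.39% and 2.41% from 3 to 5, and 5.32% (3.90 to 7.22) and 7.14% (5.67 to 8.95) at 5 or more. The intragenic share was the lower one in all 4 width classes and all 4 fold classes, and the intervals were apart only at 4 to 10 kb. With width and fold held together, peaks under 2 kb with folds under 3, the class with most peaks, held HEB in 0.246% of intragenic (0.178 to 0.339) and 0.471% of intergenic cases (0.357 to 0.620), intervals that were apart. At 2 to 4 kb and folds under 3 the shares were 0.594% (0.354 to 0.995) and 1.34% (0.849 to 2.11). Peaks of 2 to 4 kb held HEB in 2.43% of intragenic and 2.40% of intergenic cases at folds of 3 to 5, and in 5.97% and 5.72% at 5 or more. In the widest and strongest class, 4 to 10 kb with a fold of 5 or more, the shares were 5.45% (3.48 to 8.46) and 10.7% (7.89 to 14.2).

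**Figure D4:**
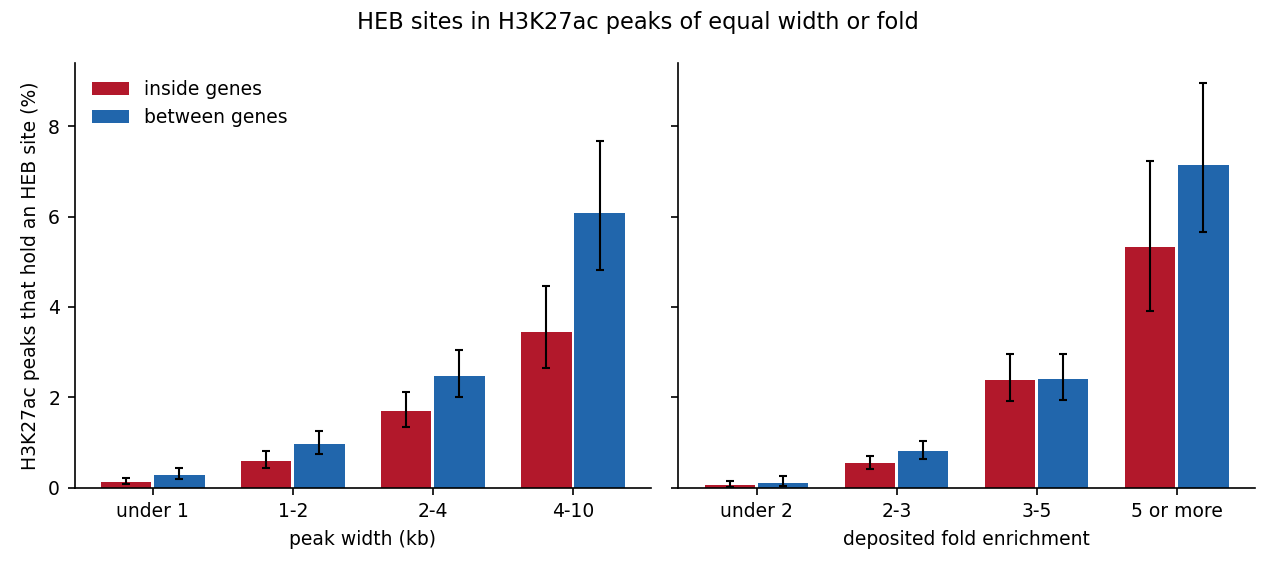
Percent of H3K27ac peaks that hold an HEB site, by peak width (left) and by deposited fold enrichment (right), in intragenic (red) and intergenic (blue) peaks, with Wilson 95% intervals for counting error. The shares climb with width and fold in both classes, to 3.44% and 6.08% at 4 to 10 kb, and at folds of 3 to 5 both stand near 2.4%.

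HEB sites in gene interiors were mostly in these peaks. By position alone, 304 autosomal HEB sites had a midpoint inside a gene and 5 kb or more from every gene end, and 175 of them lay in intragenic peaks as chosen here. Of the other 129, 92 lay in another H3K27ac peak, in 48 cases one of 10 kb or more. Of the same 129, 40 overlapped H3K4me3, 14 overlapped H3K27me3 and 33 overlapped none of the 3 marks.

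The 176 peaks with HEB lay in 167 host genes, 1.27% of eligible genes. Besides 2310022B05Rik (12.6) and Hhat (10.1), the highest folds were in the histidine catabolism gene Uroc1 (9.54), in Zcchc24 (9.44), Ttc28 (8.24) and Chst11 (7.59). Then came Sumf1, which activates sulfatases (7.37), Dnajc16 (7.21), the G protein alpha subunit gene Gna12 and the ubiquitin ligase gene Hecw2 (6.65 each), the adhesion gene Kirrel3 (6.46), Cuedc1 (6.45), the kinase gene Dapk2 (6.42) and the SMAD corepressor gene Ski (6.39). Of these peaks, those in Ttc28, Chst11, Hecw2 and Kirrel3 lay in genes with H3K4me3 and H3K27me3 at their ends. The active pattern stood at the ends of 89 of the 167 host genes (53.3%), and H3K27me3 at the ends of 53 (31.7%). These shares were close to the 51.6% and 30.8% of all eligible genes. Over all 5988 host genes they were 64.4% and 21.3%, so hosts of peaks with HEB had the active pattern less often and H3K27me3 more often. Counting only H3K27ac peaks with −log10 q of 5 or more, the shares over host genes were 52.7% and 25.7%. That threshold applied to H3K27ac at gene ends too, unlike in the 53.3%, so these 2 shares with the active pattern are not on the same definition. By class of host gene, HEB was found in 0.659% of intragenic peaks of active genes, 1.16% in genes with all 3 marks, 1.67% in genes with H3K4me3 and H3K27me3 and 0.970% in genes with H3K27me3 and without H3K4me3. Among peaks with −log10 q of 5 or more these shares were 2.02%, 2.65%, 3.90% and 2.05%, from 78, 15, 20 and 12 peaks with HEB.

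The genes described next each held HEB in 2 intragenic peaks. Zcchc24 held 2 of 5, with folds of 9.44 at 31.0 kb and 4.48 at 19.6 kb from its start. In Chst11, a chondroitin sulfotransferase gene, 2 of 15 peaks held HEB, both near the finish, at 194.1 and 199.2 kb of 211.5 kb, with folds of 7.59 and 4.93. The 2 of 16 peaks in Col4a2, a basement membrane collagen gene, had folds of 4.59 and 3.17, while its strongest intragenic peak, at 7.43, held none. The 2 of 13 in Ergic1 had folds of 6.19 and 4.01, and the 2 of 17 in Mical2, an actin-oxidizing enzyme gene, had folds of 3.95 and 3.86. In Col18a1, the gene of the collagen that yields endostatin, 2 of 16 peaks held HEB, at folds of 3.57 and 2.65, and in Polr1a, the gene of the largest RNA polymerase I subunit, 2 of 7, at 4.61 and 2.15. In Zcchc24, Chst11, Ergic1 and Polr1a the strongest intragenic peak of the gene was one with HEB. In Col4a2, Col18a1 and Mical2 the strongest intragenic peak, at 7.43, 5.51 and 5.82, held no HEB site.

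**Figure D5:**
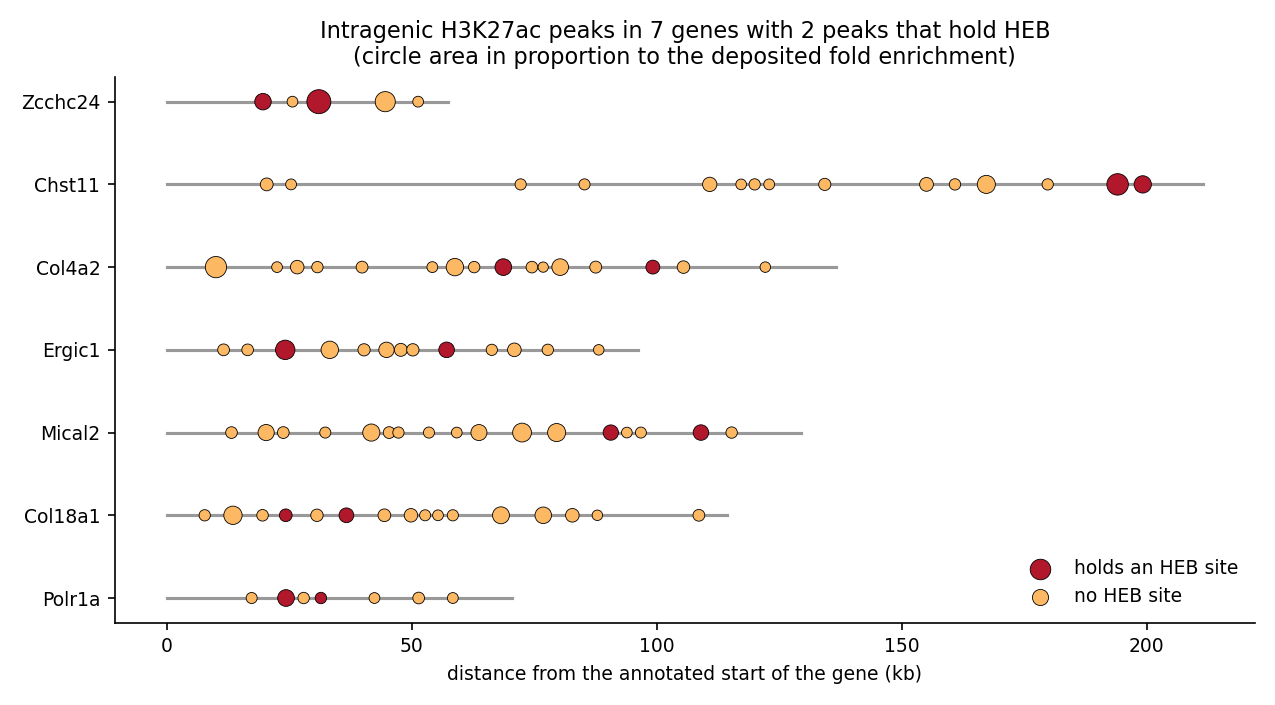
Intragenic H3K27ac peaks along 7 genes with 2 HEB-holding peaks each, by distance of the peak midpoint from the annotated start in kb. Circles are peaks, with area in proportion to the deposited fold, red with an HEB site and orange without, and grey lines are gene spans. The 2 red circles of Chst11 lie at 194.1 and 199.2 kb of a 211.5 kb span, while those of Zcchc24 lie at 19.6 and 31.0 kb.

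The annotated starts of Zcchc24 and Chst11, the 2 of these genes with the strongest HEB-holding peaks among those with a start window, are shown for comparison with the internal starts above. Capitals again mark CAGCTG or CAGGTG.
Zcchc24, start window, chr14:25769023-25769322, minus strand: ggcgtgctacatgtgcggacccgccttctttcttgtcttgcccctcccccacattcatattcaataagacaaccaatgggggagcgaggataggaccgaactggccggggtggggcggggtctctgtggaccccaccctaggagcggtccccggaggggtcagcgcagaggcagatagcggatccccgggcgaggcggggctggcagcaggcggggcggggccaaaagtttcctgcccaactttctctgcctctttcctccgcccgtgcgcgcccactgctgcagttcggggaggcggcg
Chst11, start window, chr10:82985247-82985546, plus strand: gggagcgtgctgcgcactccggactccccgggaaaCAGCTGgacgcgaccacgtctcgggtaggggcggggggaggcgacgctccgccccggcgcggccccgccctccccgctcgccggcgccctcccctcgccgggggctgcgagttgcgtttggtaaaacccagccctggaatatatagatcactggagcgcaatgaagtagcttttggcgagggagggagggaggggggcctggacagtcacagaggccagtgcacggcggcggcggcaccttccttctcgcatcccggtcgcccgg
The Zcchc24 window lay in an H3K4me3 peak with a fold of 18.5, with no H3K27me3, and held neither hexamer. The Chst11 window lay in an H3K4me3 peak with a fold of 21.0, also with no H3K27me3, and held 1 CAGCTG. No HEB site overlapped either window, and no H3K27ac peak did.

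Of 506 eligible genes in the lists, 20 held HEB in an intragenic peak (3.95%, 2.57 to 6.03), against 1.27% of all eligible genes. These shares were not adjusted for gene length or peak number. Median span and peaks per eligible gene were 104.3 kb and 7 in the focal adhesion list and 73.7 kb and 5 in the Hippo list. In the AP-1 list they were 21.4 kb and 0, and over all eligible genes 33.8 kb and 0. Whether the shares differ beyond length and peak number was not tested. The lists were chosen with earlier results of these data known, and the genes named here were chosen after their values were seen. They included the Hippo effector genes Tead1 (highest intragenic fold 6.89) and Wwtr1 (5.35), which encodes TAZ, and the protocadherin gene Fat1 (3.74). The Wnt repressor gene Tcf7l1 (4.39), the TGF-beta coreceptor gene Tgfbr3 (6.06), the integrin gene Itgb6 (4.19) and Daam1 (3.91) each held HEB in 1 peak. Nrg1, a long gene, held HEB in 1 of its 38 peaks. Control lists held HEB too, with 2 such peaks in neuronal markers and 1 in skeletal muscle markers, in Mb. No peak with HEB lay in the epithelial adhesion, basal identity, EMT or Notch lists.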

How the data were processed

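Peak lists for HEB and 3 histone marks, 1 per antibody, were used as deposited. Coordinates are mm10 and SAMtools (version not given) was used, per the submitters' processing notes. How reads were aligned, peaks called, replicates combined and a control chosen: not given in the sources used here. For HEB, positions alone were deposited, and the list's name describes a replicate consensus with a minimum overlap of 2. The mark lists have peak names of the form MACS2 writes. Their deposited fold enrichment is the authors' ratio of ChIP over control. The −log10 q-value of a peak is also as the authors deposited it. The deposited score is 10 times −log10 q, checked on the values (5 peaks differ for H3K27ac and 5 for H3K27me3), and was not used.

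Genes, starts and sequences came from RefSeq on GRCm38.p6, the assembly of mm10, with 20665 autosomal protein-coding genes. Strand came from its start windows, which held 79.6% of these genes. Exons and introns were not used here. Positions were compared in Python 3.11.15 with NumPy 2.4.6, pandas 2.3.3 and SciPy 1.17.1, an overlap being 1 bp or more, and figures were drawn with Matplotlib 3.10.9. The interval routines gave the same answers as a direct search when tested on simulated data. Density is peaks per 100 kb of gene lying 5 kb or more from every gene end. No test was run, since no list carries replicates, and Wilson intervals give counting error.

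Named genes were the 10 strongest peaks, the 10 hosts with most peaks and the 10 densest with 3 or more, the 15 strongest peaks with HEB and hosts with 2 or more of these, the 5 widest and the 5 just past the width limit, up to 4 genes per list, and the 5 H3K27me3-ended hosts with most peaks. Some items that these rules select, 1 list among them, are not reported here. Peaks, 27 lists (642 genes, all found) and rules were chosen with earlier results of these data known. Alternatives changed the peak threshold, the distance, the overlap rule, the windows and the chromosomes.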

Additional observations from a re-analysis of the deposited data

How the results depend on the processing

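No paired analysis was possible because each antibody has 1 peak list with no column per replicate, and for the same reason no replicate could be left out. Depth is unknown, so weak peaks cannot be told from absent ones. Of 87 recomputed values for the main results, 55 stayed within their counting interval or within 1.5 times their count and 32 did not. With H3K27ac peaks of −log10 q of 5 or more, there were 6537 intragenic peaks in 3096 host genes. Of these peaks 2.25% held HEB, with 17.0% of HEB sites, 33.7% were grouped and the median distance to a gene end was 31.2 kb. Of the host genes 52.7% had active ends and 25.7% H3K27me3, against 46.4% and 32.4% of eligible genes without a peak. This threshold and the fold threshold that follows applied to H3K27ac at gene ends too. With peaks above the median fold, there were 7702 peaks in 3404 host genes, 84.6% with −log10 q of 5 or more. HEB lay in 1.97% of these peaks, with 17.6% of sites, 37.7% were grouped, the median distance was 31.0 kb, and 54.8% of host genes had active ends and 25.4% H3K27me3, against 47.0% and 32.7% of eligible genes without a peak. At 2500 bp from gene ends, 29.0% of peaks had −log10 q of 5 or more, 20.2% of host genes had H3K27me3, 49.7% of pairs lay on the start side and the median distance was 23.3 kb. At 10000 bp these were 30.7%, 23.3%, a share within its interval, and 34.6 kb, with active ends in 62.5% of host genes. Requiring the whole peak inside gave a median of 28.04 kb. Windows of 500 and 2500 bp gave H3K27me3 at 18.8% and 26.4% of host genes. Without chromosome 15, 65.4% of peaks were grouped. On all autosomes, a grouping distance of 5000 bp gave 32.6%. Counting peaks that overlap H3K27me3, an alternative added after seeing the data, gave active ends in 63.0% and H3K27me3 in 22.9% of host genes. In all of these, active ends stayed more frequent and H3K27me3 less frequent in host genes than in eligible genes without a peak. Of 189 host counts of lists, 24 moved by over 1.5 times, 19 of them under the q or fold threshold.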
